A study of Arabidopsis thaliana with 9 samples.

Results

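The 10 genes described here encode the IDA-like (IDL) peptides and the HAESA receptors of Arabidopsis thaliana, measured by RNA sequencing in roots in which the zinc finger transcription factor STZ was switched on. They are 8 peptide genes, IDA (AT1G68765), IDL1 (AT3G25655), IDL2 (AT5G64667), IDL3 (AT5G09805), IDL4 (AT3G18715), IDL5 (AT1G76952), AT5G05300 and AT3G10930, and 2 receptor genes, HAE (AT4G28490, also called RLK5) and HSL2 (AT5G65710), of 32833 genes listed. The last 2 peptide genes have no symbol in the files and are given by their locus identifiers. The family was chosen from the levels of its members in these same libraries, so the members' differences between groups are a description without a test, and no p-value is given for them. The seedlings carried p35S::XVE>>pLexA::STZ in Col-0, in which an estradiol-bound activator, XVE, made from a 35S promoter, drives STZ from a LexA-controlled promoter. Seedlings of 4 to 5 days were given 20 µM estradiol for 24 h (24 h group), 20 µM estradiol for 6 h (6 h group), or ethanol for 24 h (mock group), with 3 libraries in each group. All groups came from 1 transgenic line and carry the transgene, and no estradiol-treated seedlings without it were among the samples, so estradiol and STZ cannot be told apart, nor can 6 h of treatment and the 24 h that the mock lasted.

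IDA and its relatives are made as short precursors with a signal peptide and are processed at their C-terminus to a secreted peptide. HAE and HSL2 are leucine-rich repeat receptor kinases that bind these peptides together with SERK co-receptors and signal through a MAP kinase cascade to genes of wall loosening and cell separation. The pathway is best known from floral organ abscission. In roots IDA with HAE and HSL2 acts in the tissue that overlies emerging lateral roots, and IDL1 with HSL2 acts in the shedding of root cap cells.

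The stretch that the precursors share was located from sequence alone, in the TAIR10.1 genome and its RefSeq annotation. Where the processed peptide begins and ends was not determined. In 7 of the 8 annotated precursors, a window of 12 residues near the C-terminus held 5 positions with the same amino acid in all 7. Below is the coding DNA of that window, after 9 bases of the codons before it. It is shown because it is the part the members share, and capitals mark the 5 codons for the shared residues.
IDA: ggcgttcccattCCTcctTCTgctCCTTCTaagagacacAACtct
IDL1: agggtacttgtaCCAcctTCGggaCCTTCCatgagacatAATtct
IDL2: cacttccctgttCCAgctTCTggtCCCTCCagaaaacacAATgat
IDL3: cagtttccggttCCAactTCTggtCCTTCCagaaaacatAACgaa
IDL4: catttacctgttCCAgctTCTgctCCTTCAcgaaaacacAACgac
IDL5: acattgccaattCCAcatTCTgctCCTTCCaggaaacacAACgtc
AT5G05300: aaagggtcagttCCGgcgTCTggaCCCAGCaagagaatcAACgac
AT3G10930: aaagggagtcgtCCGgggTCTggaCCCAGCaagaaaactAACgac
The 5 capital codons stand at the same places in every line, whereas the bases around them differ. IDL2 and IDL3 had 10 of 12 residues in common in the window and 63.5% identity over the aligned precursors, and AT5G05300 and AT3G10930 had 8 of 12 and 67.0%. The pair most alike in the window was IDL2 and IDL4, with 11 of 12 residues in common but 41.6% identity over the aligned precursors. Over all 28 pairs, identity ran between 20.0% and 67.0%.

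AT3G10930 was the exception in the annotation. Its annotated protein of 101 residues matched at most 2 of the 5 shared positions in any window. Another reading frame of the same transcript, open for 97 codons from its first ATG (chr3:3420466-3420759, minus strand), matched all 5, and the line printed for AT3G10930 is from that frame. The 36 bases of its window lie inside the annotated coding sequence, out of frame with it, and no other window in any frame of the transcript matched more than 2. Gene-level reads cannot say which frame is translated, so the counts of AT3G10930 are counts of the transcript.

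All members lie on the nuclear chromosomes, and the exon length in the files equalled that of the TAIR10.1 annotation for all 10. IDL3 is at chr5:3047011-3047753 (plus strand), with its coding sequence at 3047218 to 3047517. IDA is at chr1:25829917-25830781 (minus strand), with its coding sequence at 25830157 to 25830390. HAE is at chr4:14077676-14081457 (plus strand) and HSL2 at chr5:26292372-26295687 (plus strand), each with 2 exons, and their proteins of 999 and 993 residues were 47.3% identical over 954 aligned positions. The printed windows of IDA and IDL3 are in the exon that makes up the whole gene, as 7 of the members have 1 exon. Only AT5G05300 overlaps another annotated gene, AT5G05290 on the opposite strand. How the counting treated strand is not stated in the sources at hand, and the reads of these overlapping genes cannot be told apart. Every member read was uniquely mapped, including those of the similar pair IDL2 and IDL3.

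The libraries held between 24375822 and 31299634 counted exon reads. STZ, counted together with its native copy, averaged 11329.7 ± 1557 CPM at 24 h, 1182 ± 145 CPM at 6 h and 23.8 ± 5.58 CPM in mock (SD, n = 3 each; CPM, reads scaled to the library total with TMM factors), in the order of the labels. All 7 root tissue markers (EXPA7, COBL9, GL2, CASP1, SCR, APL and WOX5) had reads in each group and summed to 424 to 572 CPM at 24 h, 429 to 619 CPM at 6 h and 402 to 442 CPM in mock. WOX5, which marks the quiescent centre, was called higher at both times than in mock, with 2.16 ± 0.574 CPM at 24 h, 6.83 ± 0.424 CPM at 6 h and 0.850 ± 0.375 CPM in mock. SCR, a marker of the endodermis, was called higher at 24 h than in mock, with 115.9 ± 26.0 CPM at 24 h, 59.6 ± 8.35 CPM at 6 h and 51.7 ± 1.28 CPM in mock. The other 5 were not called at either time. The 5 photosynthesis genes taken as shoot markers (RBCS1A, RCA, LHCA4, LHCB2.1 and PSBO1) summed to 37.2 to 42.9 CPM at 24 h, 40.3 to 45.3 CPM at 6 h and 172 to 181 CPM in mock, and all 5 were called lower at both times in the fit of all libraries, although LHCB2.1 passed the filter only through mock and so had to differ. The part of these root and shoot tissues in the differences below was not tested. In these bulk samples, fewer cells of a type and less RNA per cell cannot be told apart. The 3 libraries of a group are biological replicates per the labels, but separate sowings are not named, so each p-value reflects only the spread seen among these libraries, some of which may be technical.

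IDL3, an IDA-like peptide gene, was by far the most abundant family member at 24 h and was nearly silent in mock. It had 8474, 5094 and 4472 reads in the 24 h libraries, 56, 41 and 50 reads in the 6 h libraries, and 1, 2 and 7 reads in the mock libraries. Scaled for depth, this was 297, 225 and 174 CPM at 24 h, 2.09, 1.51 and 1.76 CPM at 6 h, and 0.037, 0.068 and 0.220 CPM in mock. No library of one group overlapped with those of another. The fitted log2 difference was 10.95 ± 0.33 (SE) at 24 h against mock, 7.02 ± 0.23 at 24 h against 6 h and 3.93 ± 0.56 at 6 h against mock. Mock replicate 3 held most of the mock reads, and without it the fitted differences against mock were 11.97 at 24 h and 4.96 at 6 h. With only 10 mock reads in all, the ratio of summed counts was 2072 at 24 h against mock (95% exact Poisson interval 1126 to 4321) and 15.8 at 6 h against mock (8.33 to 33.6), intervals that cover counting error only. By fitted log2 difference at 24 h against mock, IDL3 ranked 20 from the top of the 20272 genes fitted, and HAE 361.

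IDA, the founding member, followed the same order at a level far lower. It had 146, 93 and 98 reads at 24 h, 11, 19 and 23 reads at 6 h, and 1, 0 and 0 reads in mock. These were 5.12, 4.11 and 3.80 CPM at 24 h, 0.410, 0.700 and 0.811 CPM at 6 h, and 0.037, 0 and 0 CPM in mock. The 3 groups did not overlap. At 24 h against 6 h the fitted log2 difference was 2.75 ± 0.26 (SE), a 6.74-fold change. Since mock held 1 read, the ratio of summed counts against mock is 387 at 24 h (95% exact Poisson interval 69.0 to 15330) and 56.8 at 6 h (9.77 to 2286).

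HAE, the receptor kinase gene, had 1176, 768 and 1008 reads at 24 h, 118, 114 and 114 reads at 6 h, and 65, 72 and 77 reads in mock. Its level was 41.3, 33.9 and 39.1 CPM at 24 h, 4.39, 4.20 and 4.02 CPM at 6 h, and 2.39, 2.45 and 2.43 CPM in mock. The spread within a group was small beside the gaps between groups, and none overlapped. HAE was 15.7-fold higher at 24 h than in mock (log2 3.97 ± 0.11, SE), 9.06-fold higher at 24 h than at 6 h (3.18 ± 0.10), and 1.73-fold higher at 6 h than in mock (0.79 ± 0.12). For HAE and IDL3 the fitted difference was larger at 24 h against 6 h than at 6 h against mock, whereas IDA had the opposite order, with a 6.74-fold change at 24 h against 6 h and a lower limit of 9.77 for its ratio at 6 h against mock.

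HSL2, the other receptor of the family, did not share this course. It had 12.2, 11.6 and 12.5 CPM at 24 h, 14.0, 12.4 and 15.8 CPM at 6 h, and 16.1, 15.5 and 14.9 CPM in mock. The 24 h libraries lay below all mock libraries, while the 6 h libraries overlapped with both. The log2 difference was −0.35 ± 0.10 (SE) at 24 h against mock and −0.14 ± 0.10 at 6 h against mock, smaller than the 1.5-fold used for a call. On the length-scaled RPKM scale (reads divided by the length of the exons and the library's mapped total), the HAE level was 9.58 at 24 h, 1.09 at 6 h and 0.640 in mock, and the HSL2 level was 3.49 at 24 h, 4.21 at 6 h and 4.71 in mock. HSL2 therefore had the higher RPKM of the receptors in mock and at 6 h, and HAE at 24 h.

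**Figure D1:**
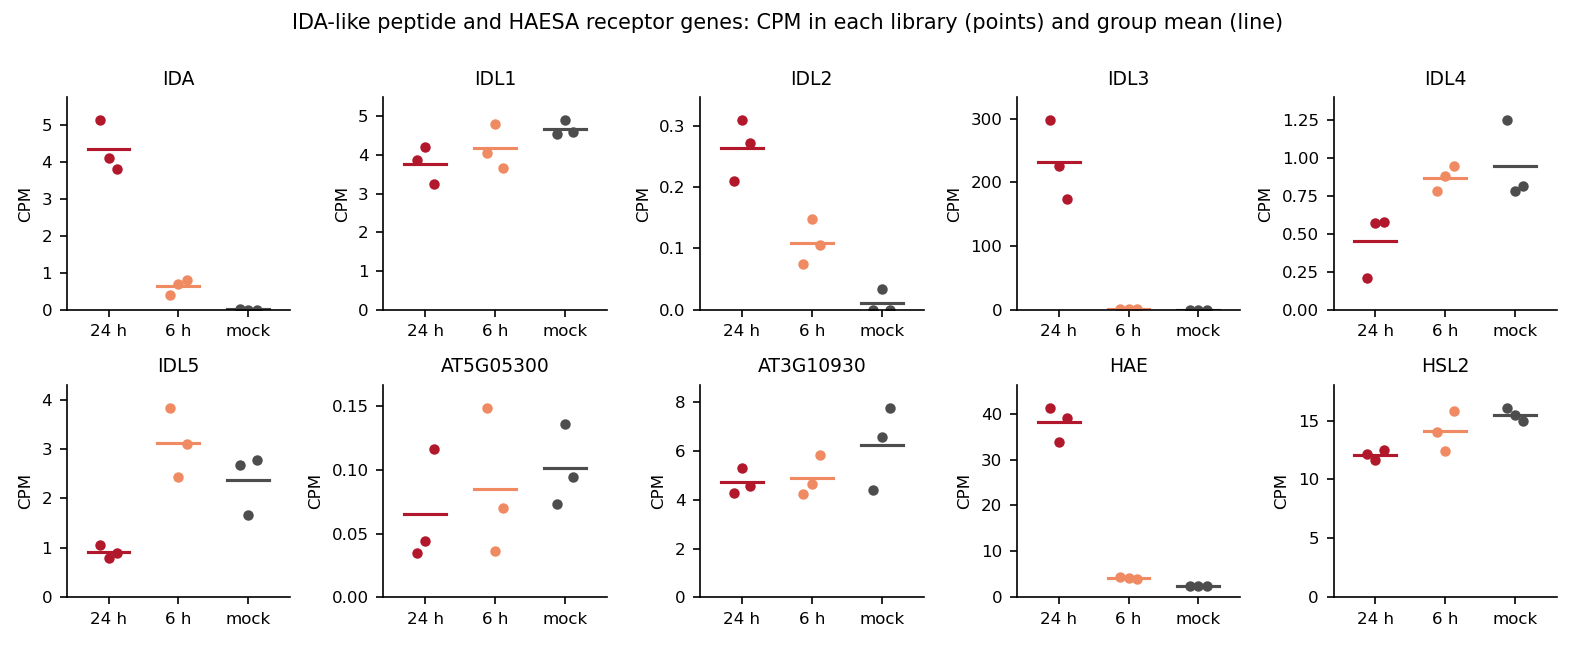
CPM (vertical axis, from 0, with its own scale in each panel) of the 10 genes in the 24 h, 6 h and mock libraries. Points are libraries and lines are group means. IDL3, IDA and HAE are highest at 24 h, at means of 232, 4.34 and 38.1 CPM, whereas all 24 h libraries of IDL4 and IDL5 lie below those of 6 h and mock. IDL1, HSL2, AT3G10930 and AT5G05300 also have their lowest mean at 24 h, with libraries that overlap those of 6 h.

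Of the other peptide genes, IDL5 was lower at 24 h. It had 30, 18 and 23 reads at 24 h, 103, 66 and 88 reads at 6 h, and 73, 49 and 88 reads in mock, or 0.913 ± 0.130, 3.12 ± 0.703 and 2.37 ± 0.615 CPM (SD, n = 3) at 24 h, at 6 h and in mock. The 24 h libraries lay below all others, and those of 6 h and mock overlapped. The log2 difference was −1.36 ± 0.27 (SE) at 24 h against mock, −1.76 ± 0.26 at 24 h against 6 h and 0.39 ± 0.22 at 6 h against mock.

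IDL4 was near the limit of what the depth could measure, with 6, 13 and 15 reads at 24 h, 21, 24 and 27 reads at 6 h, and 34, 23 and 26 reads in mock. Its 24 h libraries, at 0.211, 0.574 and 0.582 CPM, lay below the 6 h libraries (0.782, 0.884 and 0.952 CPM) and the mock libraries (1.25, 0.782 and 0.819 CPM). The log2 difference was −1.08 ± 0.36 (SE) at 24 h against mock and −0.96 ± 0.37 at 24 h against 6 h, and neither was called.

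IDL1, the root cap peptide gene, had 3.86, 4.19 and 3.26 CPM at 24 h, 4.06, 4.79 and 3.67 CPM at 6 h, and 4.53, 4.90 and 4.60 CPM in mock. Its 24 h libraries lay below the mock libraries by a small margin (log2 −0.31 ± 0.14, SE), and 6 h overlapped with both other groups. AT3G10930 had 4.28, 5.30 and 4.58 CPM at 24 h, 4.25, 4.64 and 5.85 CPM at 6 h, and 4.42, 6.56 and 7.78 CPM in mock, with all groups overlapping. Its log2 difference was −0.42 ± 0.20 (SE) at 24 h against mock, not called, and −0.61, called, when mock replicate 1, the lowest of the mock libraries, was left out.

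The remaining 2 peptide genes did not pass the low-count filter and were not fitted. IDL2 had 6, 7 and 7 reads at 24 h, 2, 4 and 3 reads at 6 h, and 0, 1 and 0 reads in mock. Its groups did not overlap, and the ratio of summed counts was 23.0 at 24 h against mock (95% exact Poisson interval 3.67 to 952), 9.65 at 6 h against mock (1.34 to 423) and 2.38 at 24 h against 6 h (1.04 to 5.94). AT5G05300 had 1, 1 and 3 reads at 24 h, 4, 1 and 2 reads at 6 h, and 2, 4 and 3 reads in mock. The ratio of 0.638 at 24 h against mock has an interval of 0.168 to 2.12, so no difference was detectable at this depth.

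Read as calls at an adjusted p under 0.01 with at least a 1.5-fold change, 3 of the 8 fitted members (IDL3, IDA and HAE) were called higher and 1 (IDL5) lower at 24 h against mock, where 17.6% of all genes fitted were called higher and 18.0% lower. At 24 h against 6 h the same 3 were called higher and IDL5 lower, beside 14.1% and 10.5% of all genes. At 6 h against mock the members called were the same 3, each higher, beside 5.43% called higher and 7.71% called lower over all genes. Nothing is read from these counts, since the members were chosen with such differences known, and IDA and IDL3 passed the filter only through the groups in which they were high, so they had to differ. The comparisons with mock share the mock libraries.

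**Figure D2:**
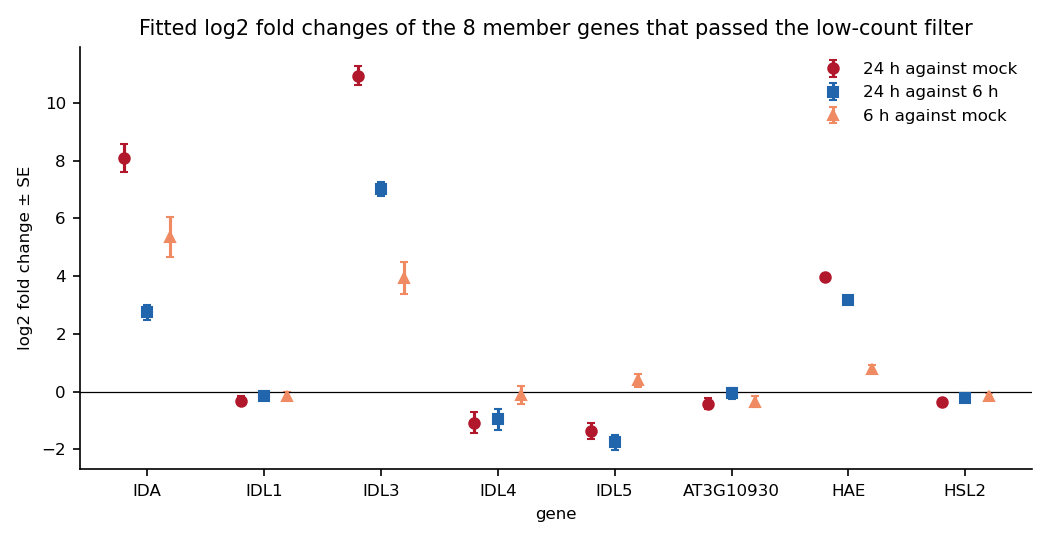
Log2 fold change with its SE (vertical axis) for the 8 members that passed the filter (horizontal axis), with circles for 24 h against mock, squares for 24 h against 6 h and triangles for 6 h against mock. IDL3, IDA and HAE lie above 0 in each comparison, and IDL4 and IDL5 lie furthest below 0 in those that involve 24 h. IDL1, AT3G10930 and HSL2 lie below 0 there by less.

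The make-up of the family's transcripts was compared per length. Summed over the 8 peptide genes, RPKM was 308 ± 78.9 at 24 h, 22.7 ± 1.498 at 6 h and 20.9 ± 1.96 in mock (SD, n = 3 each). IDL3 made up on average 93.9% of that sum at 24 h, 10.2% at 6 h and 0.650% in mock. Without IDL3 the sum was 18.0 ± 0.649 RPKM at 24 h, 20.4 ± 1.14 at 6 h and 20.7 ± 1.83 in mock, with the 24 h libraries lowest. In mock most of the sum came from IDL1 (34.3%), AT3G10930 (34.2%) and IDL5 (24.2%). By mean RPKM at 24 h the order was IDL3 (290), IDL1 (5.42), AT3G10930 (5.14), IDA (4.67), IDL5 (1.85), IDL4 (0.550), IDL2 (0.282) and AT5G05300 (0.081). IDL2 and IDL3, which are alike over the aligned precursors, were far apart in level. IDL1, AT3G10930 and IDA overlapped over the 24 h libraries, as did IDL4 and IDL2, so their order is not separated by the spread. At 6 h the order was IDL5 (6.57), IDL1 (6.22), AT3G10930 (5.56), IDL3 (2.32), IDL4 (1.09), IDA (0.713), IDL2 (0.121) and AT5G05300 (0.110), of which the 3 highest overlapped with each other, as did the 2 lowest. In mock it was AT3G10930 (7.19), IDL1 (7.11), IDL5 (5.06), IDL4 (1.21), IDL3 (0.142), AT5G05300 (0.132), IDA (0.014) and IDL2 (0.013). There AT3G10930 overlapped with IDL1 and with IDL5, while the 4 lowest rested on 10, 9, 1 and 1 reads. IDL3 thus led the peptide genes at 24 h, stood behind 3 of them at 6 h and behind 4 of them in mock.

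**Figure D3:**
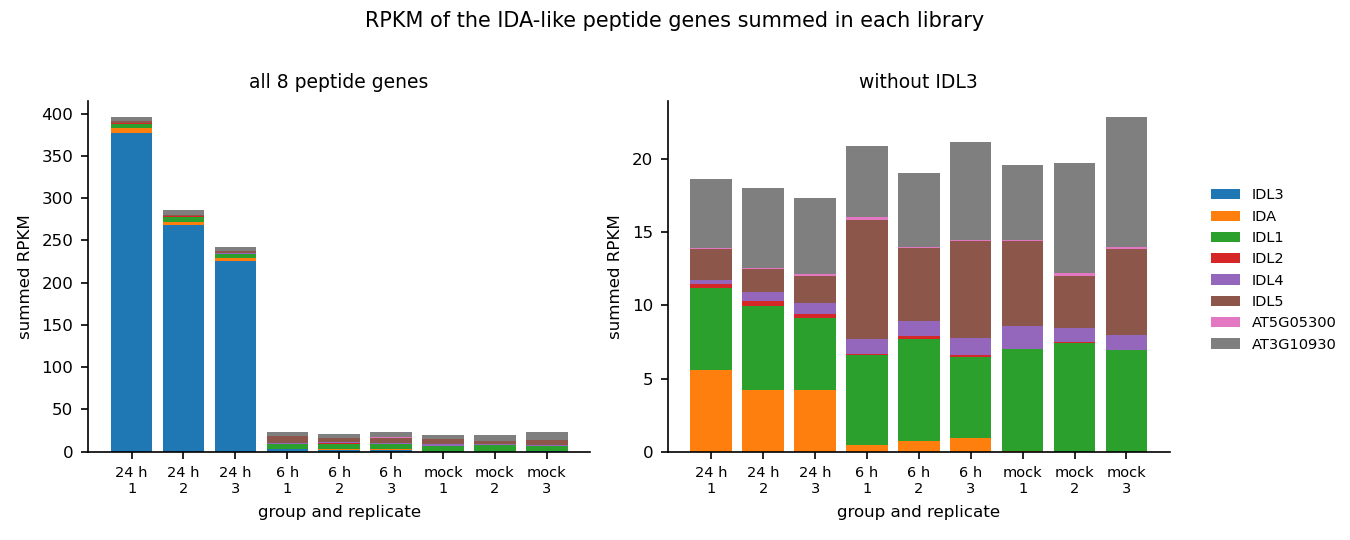
RPKM of the peptide genes (vertical axis, stacked by gene) in each of the 9 libraries (horizontal axis), for all 8 genes on the left and without IDL3 on the right. IDL3 accounts for the height of the 24 h bars, 308 RPKM on average, and the remainder stays between 18.0 and 20.7 RPKM in the group means, with IDA visible at 24 h in place of part of IDL5.

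For each fitted member, the genes whose log2 CPM followed it most closely over the 9 libraries were looked up among 8692 named genes averaging 5 CPM or more. The libraries form 3 groups, so a high Pearson r mostly restates the order of the group means, and no test is given. IDL3 was most alike to ALA6 (r = 0.999) and TPPJ (0.998), IDA to DRP1B (0.996) and BFRUCT4 (0.993), and HAE to CSP1 and SFH3 (0.998 each). Such profiles were common, as 9.92% of the genes had r over 0.95 with IDL3, 9.65% with HAE and 5.19% with IDA. IDL5 was most alike to UGT79B2 (0.981) and OFUT35 (0.980), a profile that only 0.173% of the genes shared at that r. HSL2 was most alike to MEX1 (0.977) and CYCD3-3 (0.976), IDL4 to POT8 (0.964) and ALF4 (0.943), IDL1 to PLA2-ALPHA (0.952) and NTMC2TYPE5.2 (0.949), and AT3G10930 to PAP14_2 (0.877) and ANN3 (0.864).

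Because IDL3, IDA and HAE were higher together, the 250 bases before their annotated starts are printed, read 5′ to 3′ on the strand of each gene. Capitals mark TTGAC, the core of the W-box bound by WRKY factors, on either strand, and AGTNNNAGT, a pair of AGT triplets of the kind that STZ and related zinc fingers bind in vitro, also on either strand.
IDL3: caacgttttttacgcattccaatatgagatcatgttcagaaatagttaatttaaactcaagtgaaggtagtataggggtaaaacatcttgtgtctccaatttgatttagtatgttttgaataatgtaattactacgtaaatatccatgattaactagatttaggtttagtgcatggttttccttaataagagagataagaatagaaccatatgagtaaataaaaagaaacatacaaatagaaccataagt
IDA: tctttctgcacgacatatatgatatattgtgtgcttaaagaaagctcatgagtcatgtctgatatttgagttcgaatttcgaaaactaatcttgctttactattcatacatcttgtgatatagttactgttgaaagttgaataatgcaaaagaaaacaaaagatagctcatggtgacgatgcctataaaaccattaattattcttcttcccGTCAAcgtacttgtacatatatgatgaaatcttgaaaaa
HAE: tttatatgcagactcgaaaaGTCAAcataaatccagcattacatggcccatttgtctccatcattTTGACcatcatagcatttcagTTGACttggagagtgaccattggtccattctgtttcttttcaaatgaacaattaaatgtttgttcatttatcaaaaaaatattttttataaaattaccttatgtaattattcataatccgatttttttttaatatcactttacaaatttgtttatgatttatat
The IDL3 window (chr5:3046761-3047010) held neither motif, the IDA window (chr1:25830782-25831031) 1 TTGAC core, and the HAE window (chr4:14077426-14077675) 3 TTGAC cores, and none of the 3 held the paired triplet. Over all 10 members, 6 windows held TTGAC and 2 (IDL5 and HSL2) held the paired triplet, beside 44.9% and 11.9% of 27438 windows of protein-coding genes. In IDL5 the motifs overlap. Only AGT pairs 3 bases apart were searched, so other spacings or variants of the triplet were not covered. A match or its absence in this window says nothing of binding.

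The rest of the pathway was followed with 46 genes in 6 lists, of which 42 were fitted. These genes were tested with edgeR's quasi-likelihood test and Benjamini-Hochberg adjustment over all genes fitted. At 24 h against mock 4 were called higher and 13 lower, with a median log2 change of −0.29 (−0.01 over all genes), at 24 h against 6 h 4 were higher and 9 lower (−0.25, against −0.02), and at 6 h against mock 3 were higher and 5 lower (0.03, against 0.00). The percentages of all genes called are those given above. These counts include DOF4.7 and ADPG2, which passed the low-count filter only through the 24 h group. They also include PIP2, which passed only through mock, and AT5G14650, which passed through 24 h and mock but not 6 h. Genes that pass only where they are high had to differ, so their calls carry no weight of their own.

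Among wall enzymes of cell separation (10 of 11 fitted, 1 higher and 2 lower at 24 h against mock), the rise was that of ADPG2 (AT2G41850), a polygalacturonase that acts in floral organ abscission and pod opening. It had 2099, 1018 and 485 reads at 24 h, 18, 10 and 5 reads at 6 h, and 7, 7 and 17 reads in mock, which is 73.7, 44.9 and 18.8 CPM at 24 h, 0.670, 0.368 and 0.176 CPM at 6 h, and 0.258, 0.238 and 0.535 CPM in mock. The 24 h libraries differed widely among themselves, yet the lowest was far above every 6 h and mock library. The log2 change was 7.01 ± 0.58 (SE) at 24 h against mock and 6.82 ± 0.57 at 24 h against 6 h, whereas 6 h and mock overlapped. Since ADPG2 passed the filter only through 24 h, it had to differ and no p-value is given for it. ADPG1, its close relative, had no reads in any library. XTH28 (AT1G14720), a xyloglucan hydrolase/transferase gene, fell to 12.1 ± 0.332 CPM at 24 h, against 33.9 ± 2.03 CPM at 6 h and 29.6 ± 0.789 CPM in mock (log2 −1.28 ± 0.07 at 24 h against mock, edgeR adjusted p = 3.96e-08). PER17 (AT2G22420), a peroxidase gene, had 4.89 ± 0.501 CPM at 24 h, 5.95 ± 0.491 CPM at 6 h and 9.16 ± 0.771 CPM in mock (−0.90 ± 0.12 at 24 h against mock, edgeR adjusted p = 3.33e-05). It was already called lower at 6 h against mock (−0.62 ± 0.12, edgeR adjusted p = 0.00152), a call lost in 2 of 17 alternatives. At 24 h against 6 h it was not called (−0.28 ± 0.12). AT5G14650, annotated as a pectin lyase-like protein, was lowest at 6 h, with 0.620 ± 0.116 CPM at 24 h, 0.146 ± 0.065 CPM at 6 h and 0.901 ± 0.153 CPM in mock. Its log2 change was 2.06 ± 0.40 at 24 h against 6 h and −2.59 ± 0.37 at 6 h against mock. AT5G14650 passed the filter through 24 h and mock but not 6 h, so no p-value is given for it.

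Among transcriptional regulators of abscission (7 of 9 fitted, 2 higher, DOF4.7 among them, and 2 lower at 24 h against mock), KNAT1 (AT4G08150), the homeobox gene BREVIPEDICELLUS whose product restrains abscission downstream of HAE and HSL2, fell in steps. It had 0.737, 0.618 and 0.737 CPM at 24 h, 1.82, 1.91 and 2.15 CPM at 6 h, and 4.01, 3.40 and 3.09 CPM in mock. No groups overlapped, and the log2 change was −2.31 ± 0.19 (SE) at 24 h against mock (edgeR adjusted p = 7.72e-07), −1.48 ± 0.21 at 24 h against 6 h (8.36e-05) and −0.83 ± 0.16 at 6 h against mock (0.00214). The last call was lost without 6 h replicate 1 or mock replicate 1 (−0.91 to −0.72 over all alternatives). DOF4.7 (AT4G38000), a DOF factor that restrains floral abscission when overproduced, had 56, 32 and 12 reads at 24 h, 0 in every 6 h library, and 0, 0 and 1 in mock. By summed reads DOF4.7 was at least 35.7-fold higher at 24 h than at 6 h, with a floor of 3 reads over the 6 h group. The ratio of summed counts to mock was 115 (95% exact Poisson interval 20.1 to 4580). Neither the bound nor the interval covers the spread among the 24 h libraries. The MADS-box genes went apart: AGL18 (AT3G57390) rose to 24.5 ± 2.29 CPM at 24 h, against 14.5 ± 0.506 CPM in mock (log2 0.76 ± 0.09, edgeR adjusted p = 9.41e-06), and AGL15 (AT5G13790), which delays abscission when overproduced, fell to 0.7999 ± 0.240 CPM at 24 h, against 1.70 ± 0.541 CPM in mock (−1.07 ± 0.29, edgeR adjusted p = 0.00607). The fall of AGL15 was lost without 24 h replicate 2 or 3 or mock replicate 1, and when only the groups compared were fitted (−1.30 to −0.79 over all alternatives).

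Of the receptor partners and kinases (12 fitted), 5 were called at 24 h against mock, each of them lower. The co-receptor genes SERK2 (AT1G34210) and SERK4 (AT2G13790) fell to 7.78 ± 0.434 and 14.6 ± 0.610 CPM at 24 h, against 15.6 ± 1.74 and 24.0 ± 1.25 CPM in mock (log2 −1.0 ± 0.11 and −0.72 ± 0.09, edgeR adjusted p = 4.97e-06 and 1.28e-05). SOBIR1 (AT2G31880), the receptor kinase EVERSHED, which restrains abscission, was 43.2 ± 5.16 CPM at 24 h, against 86.0 ± 3.00 CPM at 6 h and 71.5 ± 2.36 CPM in mock (−0.73 ± 0.08 at 24 h against mock, edgeR adjusted p = 8.80e-06). MPK3 (AT3G45640), a MAP kinase of the cascade, was already low at 6 h, with 34.5 ± 3.82 CPM at 24 h, 36.4 ± 2.87 CPM at 6 h and 69.4 ± 4.09 CPM in mock (−1.01 ± 0.09 at 24 h against mock, edgeR adjusted p = 1.19e-06). The fifth was SERK1 (AT1G71830), at −0.67 ± 0.08. The median log2 change of the list at 24 h against mock was 0.08, and 7 genes were not called. Among these, MPK6 (log2 0.53 ± 0.07), NEV (0.49 ± 0.06), MKK4 (0.30 ± 0.09), MKK5 (0.22 ± 0.06) and BAK1 (0.14 ± 0.07) were higher by less than 1.5-fold. Their 24 h libraries lay above all mock libraries, so the falls do not describe the whole list. The third HAESA-like receptor gene, HSL1 (AT1G28440), was not called, at 125.6 ± 13.3 CPM at 24 h, 98.7 ± 2.00 CPM at 6 h and 109 ± 3.37 CPM in mock.

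The subtilases that cleave the IDA precursor include SBT4.12 (AT5G59090), which rose to 589 ± 27.0 CPM at 24 h and 642 ± 6.54 CPM at 6 h, against 352 ± 17.6 CPM in mock (log2 0.74 ± 0.07 and 0.87 ± 0.07, edgeR adjusted p = 2.24e-06 and 4.17e-06). SBT5.2 was not called, and SBT4.13 was not fitted for lack of reads.

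In the auxin module of lateral root emergence (7 fitted), 2 genes were called at 6 h against mock, both higher, and 3 others at 24 h against mock, each lower. The 2 called at 6 h were LBD16 (AT2G42430) and ARF19 (AT1G19220), transcription factor genes of lateral root initiation. LBD16 had 4.47 ± 0.625 CPM at 24 h, 11.7 ± 0.574 CPM at 6 h and 6.65 ± 0.854 CPM in mock (log2 0.81 ± 0.12 at 6 h against mock, edgeR adjusted p = 0.000353, and −1.39 ± 0.13 at 24 h against 6 h, edgeR adjusted p = 3.44e-06). At 24 h against mock LBD16 fell just short of the fold limit (−0.58 ± 0.13) and was called lower in 3 of 17 alternatives. ARF19 had 48.5 ± 4.04 CPM at 24 h, 52.0 ± 1.27 CPM at 6 h and 34.2 ± 2.03 CPM in mock (0.61 ± 0.07 at 6 h against mock). Its call at 6 h was lost without mock replicate 1 or with scaling by library totals alone, just under the fold limit (0.57 to 0.66 over all alternatives). At 24 h against mock ARF19 was not called (0.50 ± 0.07). LAX3 (AT1G77690), the auxin influx carrier of the cells over a lateral root, fell to 37.9 ± 3.40 CPM at 24 h, against 86.3 ± 1.58 CPM in mock (−1.19 ± 0.08, edgeR adjusted p = 9.85e-08). IAA14 (AT4G14550), the repressor SOLITARY ROOT, fell to 8.82 ± 0.576 CPM at 24 h, against 19.4 ± 1.32 CPM in mock (−1.14 ± 0.09, edgeR adjusted p = 3.56e-07). LBD29 (AT3G58190) was the remaining fall (−0.89 ± 0.23), lost in 5 of 17 alternatives, over which its log2 change ran between −1.05 and −0.65.

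The PIP peptides are secreted peptides of a neighbouring family, perceived by the receptor kinase RLK7. Of 4 genes fitted, PIP2 (AT4G37290) alone was called, lower at both times. It had 5, 4 and 6 reads at 24 h, 9, 6 and 10 reads at 6 h, and 31, 17 and 43 reads in mock. The log2 change was −2.37 ± 0.41 (SE) at 24 h against mock and −1.74 ± 0.37 at 6 h against mock. Since PIP2 passed the filter only through mock, it had to differ and no p-value is given for it. The call of PIP2 (AT4G37290) at 6 h was lost in 5 of the fits that left out 1 library, and the log2 change ran between −2.02 and −1.48 over all alternatives.

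**Figure D4:**
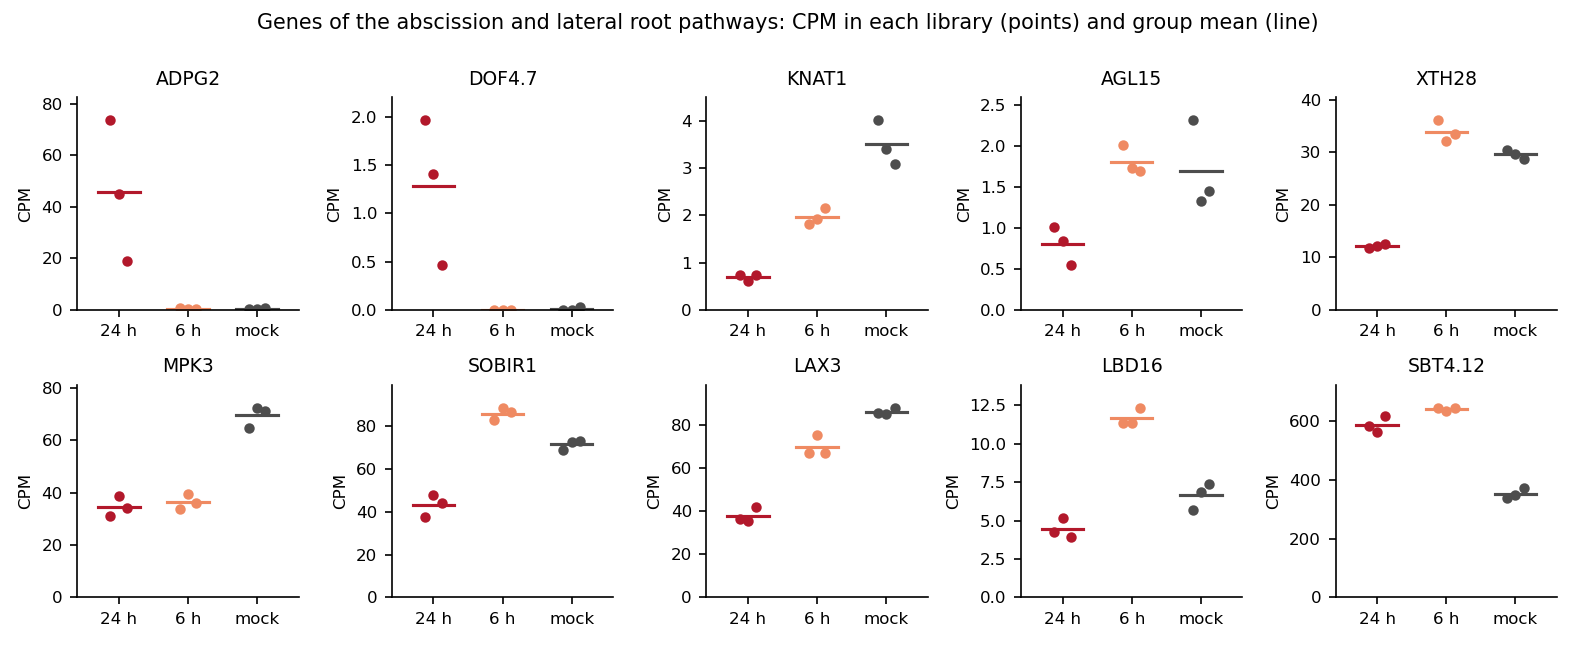
CPM (vertical axis, from 0, with its own scale in each panel) of 10 pathway genes in the 24 h, 6 h and mock libraries. Points are libraries and lines are group means. ADPG2 and DOF4.7 are high in the 24 h libraries, KNAT1 is lowest at 24 h and highest in mock, and LBD16 is highest at 6 h.

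Root cap genes were read beside IDL1 and HSL2, which act in the shedding of cap cells. The 3 markers SMB, BRN1 and BRN2 all had reads in every group and summed to 24.5 to 34.9 CPM at 24 h, 20.8 to 25.8 CPM at 6 h and 16.3 to 18.7 CPM in mock. BRN1 was higher at 24 h than in mock (log2 1.60 ± 0.12, edgeR adjusted p = 3.89e-07). BRN2 averaged 5.50 ± 2.16 CPM at 24 h, 7.86 ± 0.596 CPM at 6 h and 4.30 ± 0.515 CPM in mock (SD, n = 3 each), and was called higher at 6 h than in mock (log2 0.87 ± 0.21, edgeR adjusted p = 0.00756). SMB averaged 4.34 ± 1.70 CPM at 24 h, 6.43 ± 1.10 CPM at 6 h and 6.49 ± 0.658 CPM in mock and was not called at either time. Calls of these cap markers and of the root tissue and shoot markers were not recomputed under the alternative settings. The cap markers as a sum lay higher at 24 h than in mock, while IDL1 and HSL2 lay slightly lower. Of the 3 markers only BRN1 was called higher at 24 h, with 20.0 ± 2.20 CPM against 6.58 ± 0.605 CPM in mock. SMB and BRN2 at 24 h overlapped with mock, so the sum does not describe all 3. The part of cap tissue in these levels was not tested.

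Within the 24 h group the libraries differed in the most induced genes. IDL3, IDA, ADPG2 and DOF4.7, put side by side after their values were seen, were each highest in 24 h replicate 1 and lowest in 24 h replicate 3. HAE was highest in replicate 1 and lowest in replicate 2. STZ itself was 11847 CPM in replicate 1, 12562 CPM in replicate 2 and 9580.0 CPM in replicate 3, so the library lowest in STZ was also lowest in these 4 genes. The part of STZ level in that spread was not tested.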

How the data were processed

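RNA from roots (the sources differ on the portion taken) was turned into stranded mRNA libraries and sequenced as pairs. After trimming, the authors aligned the reads to the TAIR10 genome in CLC Genomics Workbench. For each of 9 libraries they deposited counts of all and of unique exon reads per gene. The deposited RPKM values, which the authors scaled by exon length and mapped total, served here only for levels between genes. The TPM values that the authors deposited were not used.

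Counts of total exon reads from all 9 libraries were fitted together in edgeR 4.0.16 (R 4.3.3; TMM factors, filterByExpr, quasi-likelihood test), which left 20272 genes with a biological coefficient of variation of 0.0909. Calls needed an adjusted p (Benjamini-Hochberg) below 0.01 and at least a 1.5-fold change, the thresholds of the study's methods. Each SE is the absolute log2 change divided by the root of its F statistic. Where a group had at most 10 reads, exact 95% Poisson intervals of the count ratio are given, and a group without reads was set to a floor of 3 reads. Read pairs carry no molecular identifiers, so these cover counting error only. The members and gene lists were chosen with earlier results of these data known. Named genes are all members, up to 4 called genes per pathway list by smallest p, and for each fitted member its 2 closest genes by Pearson r of log2 CPM (prior count 2). SERK1, MPK6, NEV, MKK4, MKK5, BAK1, LBD29, HSL1, ADPG1, SBT5.2 and SBT4.13 were named after their values were seen.

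Within groups, each pair of libraries differed beyond sampling noise, with a chi-square per gene of 3.08 to 23.2. Same-numbered libraries correlated at −0.05 to 0.33 in their deviations from group means, so the numbers were not taken as pairs. The steps were tested on simulated counts. Sequences were read from the RefSeq TAIR10.1 assembly, whose build name differs from that of the files (TAIR10), and precursors were aligned with MAFFT 7.526. Alternatives were DESeq2 1.42.0 or its size factors, total counts alone, other low-count filters, unique reads, fits of only the groups compared, a replicate block, another threshold and leaving out each library.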

Additional observations from a re-analysis of the deposited data

How the results depend on the processing

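The counts of called members were 3 at 6 h against mock, 4 at 24 h against mock and 4 at 24 h against 6 h, and ranged over 3 to 3, 4 to 5 and 4 to 4 when each library was left out. Counts of called pathway genes were 8, 17 and 13 in the same order, and ranged over 4 to 8, 16 to 17 and 11 to 14 when each library was left out, with 4 at 6 h against mock without mock replicate 1. Under a looser threshold, an adjusted p below 0.05 whatever the fold, they were 16, 30 and 23. The share of all fitted genes called at that threshold was not computed, so nothing is read from these counts. With the replicate number as a block (replicate block), the counts were 3, 4 and 4 members and 8, 17 and 13 pathway genes, so the replicate block changed no count. In the comparisons in which a member or named pathway gene was called, its log2 difference kept its sign under every alternative run. Few reads limit IDL2, AT5G05300 and IDL4, and the mock reads limit every ratio of IDA and IDL3 to mock.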
